A study of Mus musculus with 2 samples.

Results

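*Frg1* and 5 members of the *Frg2f* family, *Frg2f1*, *Frg2f2*, *Frg2f7*, *Frg2f8* and *Frg2f9*, were examined for occupancy by a chimeric Dux protein in mouse myoblasts. They are mouse counterparts of genes that lie beside the human DUX4 array. The peaks were selected on position in the deposited peak list, as those with a summit inside or within 20 kb of the annotated span of a member. This gave 12 distinct peaks of the 51356 in the list, at 6 of 49997 positioned genes. The presence of a peak at each member was fixed by this choice and is a description, and since the choice was by distance, counts at shorter distances are descriptions too. The rule did not use the strength of the peaks. The members were, however, chosen with earlier results of these data known, so the strengths below are descriptions too.

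The data are 2 chromatin immunoprecipitation sequencing libraries from C2C12, an established mouse myoblast line. Both came from 1 monoclonal derivative carrying MMH, a codon-altered transgene in which mouse Dux up to the end of its homeodomains is joined to the part of human DUX4 that follows the human homeodomains. In both, the transgene was induced with 2 ug/ml doxycycline for 18 h under puromycin selection. The first library was precipitated with a mixture of the DUX4 antisera MO488 and MO489. The other is a control whose sample label names anti-HA, while the study's design text names a GFP antibody, so the identity of the control antibody is uncertain. After removal of duplicates the peak caller kept 26253175 antisera and 23412256 control fragments. Each group has 1 library and no replicate, so no test between conditions was possible, and the intervals below cover counting error only. The peaks are read as occupancy by the chimera with human DUX4 epitopes in a single clone, and not by native Dux. Neither library came from uninduced cells, so signal of the antisera without the chimera was not measured.

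In humans, facioscapulohumeral muscular dystrophy (FSHD) arises when the D4Z4 repeat array near the end of the long arm of chromosome 4 loses its repression and the DUX4 gene held in each repeat is expressed in muscle. *FRG1* and *FRG2* are genes named for their position beside this array. *FRG1* encodes a nuclear protein linked to RNA processing that also binds actin, and the function of *FRG2* is poorly understood. In the mouse the corresponding Dux repeats lie on another chromosome than *Frg1*, so these counterparts no longer adjoin the array.

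The annotation holds 14 genes of this kind, *Frg1* and 13 *Frg2f* entries. *Frg1* and *Frg2f1* are protein-coding, and the other 12 are annotated as pseudogenes on chromosome 14. The 8 *Frg2f* pseudogenes outside the list of members also had a summit within 20 kb, as did 48.5% of all annotated pseudogenes. All of the 8 except *Frg2f4* lie in the tandem array named below and count only peaks that are also counted for members. The members lie at 4 loci: *Frg1* on chromosome 8, *Frg2f1* on chromosome 4, and on chromosome 14 a tandem array with *Frg2f7*, *Frg2f9* and *Frg2f2* and, 4.49 Mb beyond it, *Frg2f8*. All coordinates are in mm10.

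A summit lay within 20 kb of 6 of 6 members, as the choice requires. By the same measure 62.3% of all 21900 protein-coding genes and 48.5% of all 9955 annotated pseudogenes had one. Within 5 kb, 5 of the 6 members had a summit, *Frg2f1* being the exception, and for 3 of the 5 it includes the same peak, at the chromosome 14 array. Among genes that, like the members, had a summit within 20 kb, 69.3% of protein-coding genes and 39.1% of pseudogenes had one within 5 kb. Of the 6, *Frg1* alone had a summit inside its span, as did 32.3% of all protein-coding genes and 2.77% of all pseudogenes. Nothing is read from these counts, since distance chose the members.

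Among the 12 peaks, fold enrichment over the local background, the authors' own value for each peak, ran from 3.99 to 27.3 with a median of 11.2. The median over the whole list was 8.02, and 9 of the 12 peaks lay above it. The 3 strongest, at *Frg2f8*, *Frg2f9* and *Frg1*, were among the highest 10% of the list, which began at 23.9-fold. Widths ran from 313 to 756 bp with a median of 514 bp, against 430 bp over the list. The local background, which is derived from the control library and cannot fall under a genome-wide floor of 4.01 fragments, stood at that floor for 11 of the 12 peaks (tolerance 0.001). The floor was shared by 78.0% of all peaks.

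**Figure D1:**
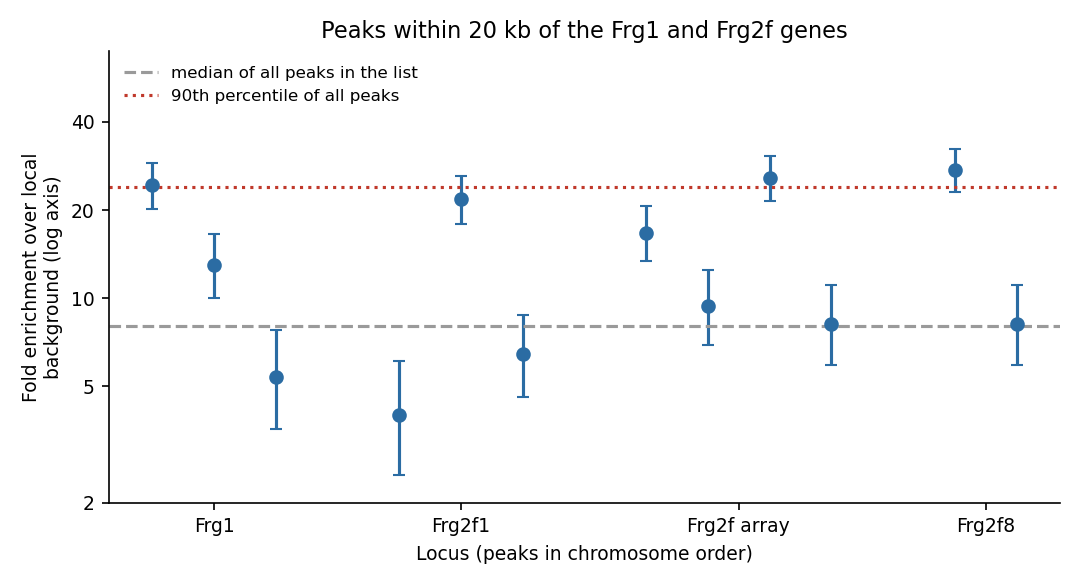
Fold enrichment (log axis) of the 12 distinct peaks by locus, in chromosome order within each, with 95% Poisson intervals of the pileup at fixed background as bars. The dashed line is the median of the whole list (8.02) and the dotted line its 90th percentile (23.9); each locus has 1 peak near or above the dotted line, and weaker peaks beside it.

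*Frg1* spans 41389181 to 41417138 on chromosome 8, a length of 27958 bp, and held 3 summits. The strongest, in a peak at 41391376 to 41392131, had a pileup of 121 antisera fragments over a background of 4.01. This is a fold enrichment of 24.3 (95% Poisson interval 20.2 to 29.0), higher than 90.2% of all peaks in the list. Its summit at 41391651 lay 2470 bp inside the lower-coordinate end of *Frg1*. That stretch is also annotated to *Asah1*, the gene of the lysosomal enzyme acid ceramidase, whose span overlaps that of *Frg1* by 8464 bp, so the peak belongs to both genes by position.

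The second *Frg1* peak, at 41400380 to 41400810, lay in *Frg1* alone with 64 fragments and 13.0-fold enrichment (10.0 to 16.5). The third, at 41415962 to 41416274, had 26 fragments and 5.39-fold enrichment (3.59 to 7.80), which exceeded only 20.1% of the list. Its summit was 1055 bp inside the higher-coordinate end. The intervals of the 3 peaks did not overlap, so the order from the lower to the higher coordinate end exceeded counting error. No further summit lay within 20 kb of *Frg1*, and the next was 55.9 kb away, at 5.79-fold.

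Having 3 or more summits inside the span was shared by 10.0% of all protein-coding genes. This count rises with gene length, and the median protein-coding span is 17146 bp. Among the 4032 protein-coding genes with spans of 20 to 40 kb, a range set after the *Frg1* value was seen, 2.53% had 3 or more. Genes without any peak nearby are counted in both shares, so they are given as description only. In the 500 kb on each side of *Frg1* there were 27 summits including its own, or 26.3 per Mb, against 17.5 per Mb over chromosome 8.

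*Frg2f1*, the only protein-coding *Frg2f* gene, spans 119530308 to 119538769 on chromosome 4 and had no summit inside it or within 5 kb. Its 3 summits all lay beyond its start, which is the higher-coordinate end since the gene is on the minus strand, at distances of 12204, 17065 and 18656 bp. All 3 were inside *Foxj3*, a forkhead transcription factor gene that begins 892 bp from the start of *Frg2f1* on the opposite strand. They therefore count for *Frg2f1* by distance but for *Foxj3* by position, 11312 to 17764 bp into that gene, and they were its only summits.

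The middle of these peaks, at 119555444 to 119556091, had a pileup of 108 over a background of 4.01, or 21.7-fold enrichment (17.9 to 26.2). The nearest peak, at 119550396 to 119551093, was the weakest of the 12, with 19 fragments and 3.99-fold enrichment (2.48 to 6.12), above only 3.48% of the list. The farthest, at 119557184 to 119557604, had 38 fragments and 6.45-fold enrichment (4.61 to 8.79). It was also the only one of the 12 whose background, 5.05 fragments, exceeded the floor. The intervals of the outer peaks overlapped each other and that of the middle peak lay above both. On the other side of *Frg2f1* the next summit was 62.4 kb away.

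**Figure D2:**
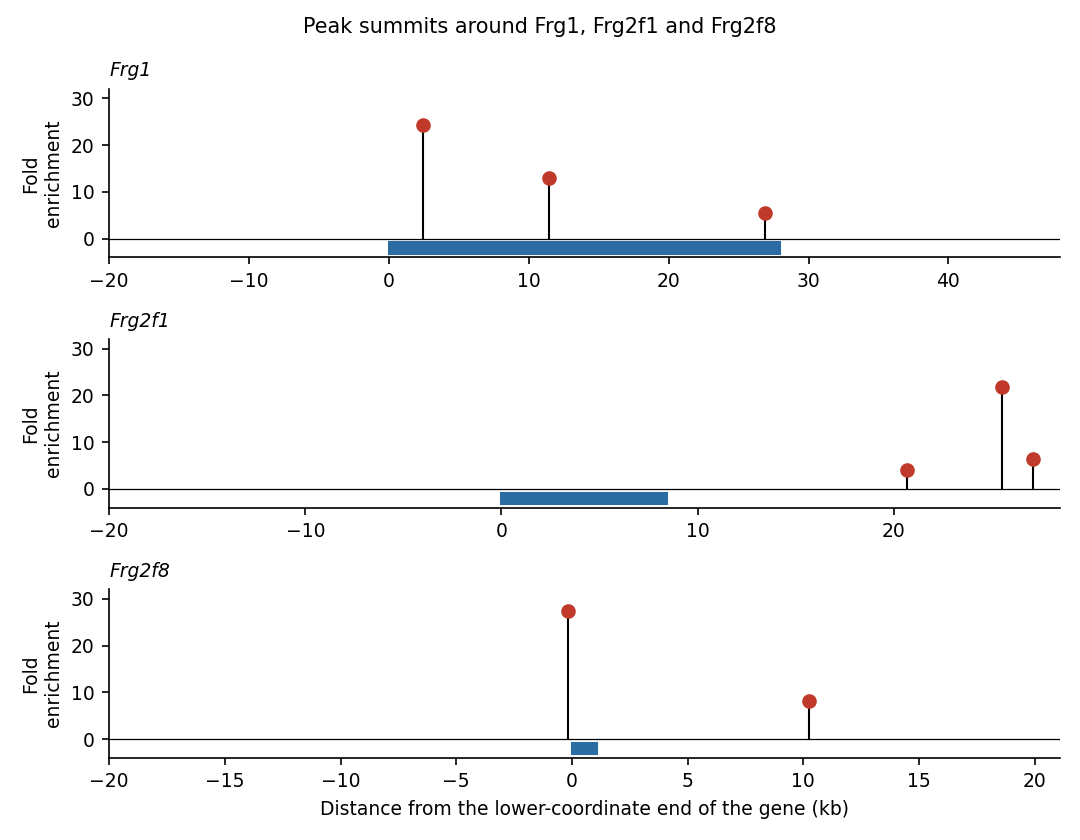
Fold enrichment at each summit (points on stems) against distance in kb from the lower-coordinate end of *Frg1*, *Frg2f1* and *Frg2f8*, within 20 kb of each span; the bar under the axis is the gene. The 3 *Frg1* summits are inside the gene, those of *Frg2f1* start 12.2 kb beyond it, and the strongest of *Frg2f8* sits 170 bp from its end.

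*Frg2f1* was the only member with an entry in the RefSeq promoter table for GRCm38.p6, the assembly of mm10. The window covers 250 bases before to 50 after the gene start, chr4:119538720-119539019 on the minus strand, and is shown because it is the stretch where a promoter peak would lie and none was called. The search was for the core TGAT on either strand (ATCA in the reverse direction), and for TGATNNNATCA, a pair of facing cores with 3 bases between them that approximates the site of Dux-family proteins and reads the same on both strands. Capitals mark the core.
*Frg2f1* promoter window: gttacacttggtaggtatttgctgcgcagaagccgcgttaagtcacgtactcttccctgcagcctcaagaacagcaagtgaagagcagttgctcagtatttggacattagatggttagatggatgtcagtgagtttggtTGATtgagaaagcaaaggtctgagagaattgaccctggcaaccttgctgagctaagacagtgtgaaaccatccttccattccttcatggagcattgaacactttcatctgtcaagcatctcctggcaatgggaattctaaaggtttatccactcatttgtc

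The window held 1 core, starting 111 bases before the gene start, and 0 paired sites. A core on either strand was present in 72.9% of the 32817 promoter windows of this length, and the paired site in 0.485%. Of the 377 windows that contained a peak summit, 27 held the paired site (7.16%), against 132 of the 32440 windows without a summit (0.407%).

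The *Frg2f* array of chromosome 14 holds 10 pseudogene copies between 106446627 and 106482551, over 35.9 kb. Their lower ends were 3163 to 3548 bp apart in 8 of the 9 steps, the exception being 7799 bp between *Frg2f5* and *Frg2f6*. The members *Frg2f7* (106461133 to 106462394), *Frg2f9* (106464480 to 106465751) and *Frg2f2* (106468024 to 106469113) are consecutive. The whole array lies within the span of *1700128A07Rik*, a long noncoding RNA gene, which contained all 4 summits counted here for these members. Because the copies are so close, 3 of the 4 peaks were shared between members, and the 3 copies stand for 1 bound region and not for 3 independent cases.

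The strongest array peak, at 106464159 to 106464780, had a pileup of 128 over a background of 4.01 and a fold enrichment of 25.7 (21.5 to 30.6), above 91.2% of the list. Its summit lay 21 bp below the lower end of *Frg2f9*, and 301 bp of the peak overlapped that copy. The same peak was 2065 bp from *Frg2f7* and 3565 bp from *Frg2f2*, for both of which it was the nearest. It fell within 20 kb of all 10 array copies.

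The second shared peak, at 106457619 to 106458027, had 46 fragments and 9.37-fold enrichment (6.92 to 12.4). It lay 3295 bp from *Frg2f7*, 6642 bp from *Frg2f9* and 10186 bp from *Frg2f2*, but nearest, at 132 bp, to *Frg2f6*, a copy outside the list of members. The peaks at either side of the array were at 106441081 to 106441573, with 83 fragments and 16.8-fold enrichment (13.4 to 20.7), and at 106484858 to 106485392, with 40 fragments and 8.18-fold enrichment (5.90 to 11.1). The first of them counted for *Frg2f7* alone, at 19768 bp, just inside the 20 kb limit, and was 23115 bp from *Frg2f9*, just outside it. The other counted for *Frg2f9* (19406 bp) and *Frg2f2* (16044 bp) and was 22763 bp from *Frg2f7*. The interval of the *Frg2f9* peak lay above those of the other 3.

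**Figure D3:**
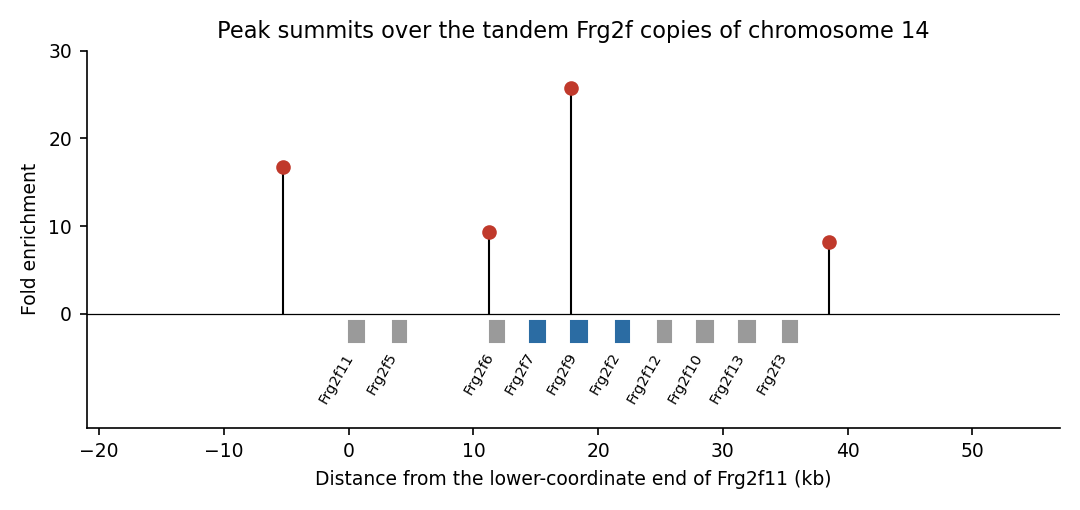
Fold enrichment at the 4 summits within 20 kb of the *Frg2f* array (points on stems) against distance in kb from its lower end; bars are the 10 copies, members in blue and others in grey. The highest point, 25.7-fold, stands at *Frg2f9*, and no summit lies between *Frg2f9* and the far side of *Frg2f3*.

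The array lay in a peak-rich part of its chromosome. Within 500 kb of the 3 members there were 39 summits, or 38.7 per Mb, against 17.7 per Mb over chromosome 14. The window of the same width around *Frg2f8* had 19.0 per Mb and that around *Frg2f1* had 19.8 per Mb, with 24.7 per Mb over chromosome 4.

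*Frg2f8* is a single copy at 110970608 to 110971690 on chromosome 14, with no other annotated gene within 98.5 kb. Its main peak, at 110970088 to 110970715, was the strongest of the 12, with a pileup of 136 over a background of 4.01. This is a fold enrichment of 27.3 (23.0 to 32.3), above 92.2% of the list. The summit lay 170 bp below the lower end of the copy, and 108 bp of the peak overlapped it. A second peak at 110980663 to 110981041, 9165 bp beyond the other end, had 40 fragments and 8.18-fold enrichment (5.90 to 11.1). The intervals of *Frg2f8* and *Frg2f9* main peaks overlapped, and so did that of the strongest *Frg1* peak.

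The position of the peaks relative to the copies was compared over all 12 *Frg2f* pseudogenes. These fall into 6 of 1080 to 1090 bp and 6 of 1259 to 1272 bp. A summit lay within 200 bp of 3 copies, *Frg2f9*, *Frg2f8* and *Frg2f6*, a distance set after their values were seen. All 12 copies had a summit within 20 kb, with 7 distinct peaks among them, as did 48.5% of all annotated pseudogenes. Of all annotated pseudogenes with a summit that near, 6.67% had one within 200 bp. In each of the 3 copies the summit was on the lower-coordinate side. Measured from the higher end, a distance that includes the annotated length of each copy, the 3 summits were at 1292, 1252 and 1213 bp. They were thus within 79 bp of each other. Measured from the lower end they were at 21, 170 and 132 bp, a spread of 149 bp. The 200 bp limit bounds this spread in advance, and the copies were not aligned by sequence. Whether the summits share a position within the copies was therefore not tested.

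The other 9 copies had their nearest summit 2065 to 10980 bp away. The strength at the 3 close copies was unequal. *Frg2f8* and *Frg2f9* reached 27.3-fold and 25.7-fold, in peaks of 628 and 622 bp, while *Frg2f6* had 9.37-fold in a peak of 409 bp. The interval of *Frg2f6* lay below those of both others. *Frg2f4*, which stands 0.352 Mb below the array, had its nearest summit 10980 bp away at 9.30-fold. The copies belong to 1 family, and how the authors handled fragments that fit more than 1 copy is not stated in the labels or headers. How far fragments were moved between copies or lost was not tested, so the contrast between bound and unbound copies is uncertain. The strand of the pseudogenes is not given in the table used, so the side of the summit is stated by coordinate only.

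**Figure D4:**
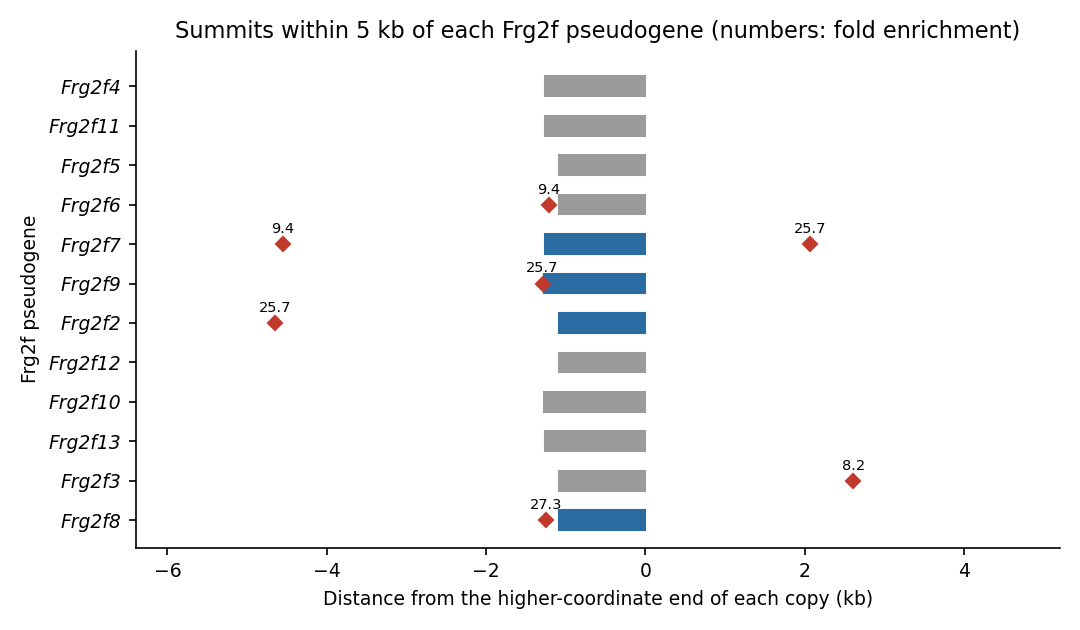
Summits (diamonds, with fold enrichment) within 5 kb of the 12 *Frg2f* pseudogenes, aligned at the higher-coordinate end of each copy, with members in blue and other copies in grey. The summits at *Frg2f6*, *Frg2f9* and *Frg2f8* fall 1213 to 1292 bp from that end; those drawn farther away at *Frg2f7* and *Frg2f2* are the same peaks seen from a neighbouring copy.

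*Frg1* was also set among 30 mouse genes, itself included, whose human counterparts lie with *FRG1* in band 4q35 near the D4Z4 array and which are still on mouse chromosome 8. Of these, 25 had a summit within 20 kb (83.3%), against 62.3% of protein-coding genes, and 14 had one inside the gene (46.7% against 32.3%). *Frg1* is in both counts, and its summit within 20 kb was fixed by the choice of members. The listed genes are longer, with a median span of 28053 bp against 17146 bp, and neighbours share peaks, so that the strongest peaks of the 25 were 19 distinct ones. The median of the strongest fold enrichment was 14.4, against 12.2 for all protein-coding genes with a summit within 20 kb.

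Only *Sorbs2* and *Pdlim3* had a stronger peak than *Frg1* among these genes. *Sorbs2*, which encodes an adaptor protein of the actin cytoskeleton, led with 45.1-fold enrichment (39.4 to 51.3) and held 14 summits in its 320119 bp. *Pdlim3*, encoding a protein of the muscle Z-disc, had 35.9-fold enrichment (30.9 to 41.5) at a summit inside the gene. The next, at 20.1-fold (16.6 to 24.2), was shared by *Lrp2bp* and *Snx25*, and its interval overlapped that of *Frg1*. *Slc25a4*, the muscle mitochondrial ADP/ATP carrier also known as ANT1, had no summit within 20 kb, and its nearest was 44.3 kb away. *F11*, *Klkb1*, *Cyp4v3* and *Trappc11* had none either.

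**Figure D5:**
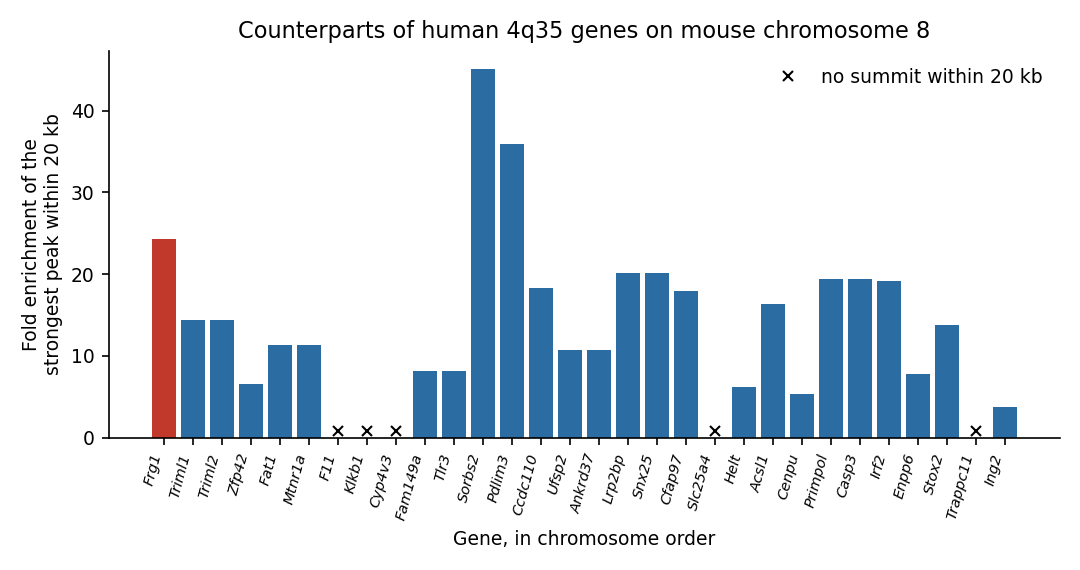
Fold enrichment of the strongest peak within 20 kb of each of the 30 counterparts of human 4q35 genes, in chromosome order, with *Frg1* in red and crosses for genes without a summit in that range. *Frg1* (24.3) is exceeded by *Sorbs2* (45.1) and *Pdlim3* (35.9); equal neighbouring bars are mostly 1 peak shared by 2 genes.

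A further list held 8 mouse genes whose human counterparts are known to act on the D4Z4 array or in FSHD. Of them, 6 had a summit within 20 kb (75%), against 62.3% of protein-coding genes. These genes too are longer, with a median span of 32762 bp against 17146 bp. The median of their strongest fold enrichment was 12.9, against 12.2 for protein-coding genes with a summit within 20 kb. *Smchd1*, a chromatin silencing factor that keeps D4Z4 repressed, had 4 summits inside the gene, and its strongest peak, 23.1-fold (19.1 to 27.7), lay 11195 bp outside it. *Hmgb2*, of a DNA-bending protein, had 1 summit inside the gene, and its strongest peak, 21.3-fold, lay 2230 bp outside it. *Ezh2*, the methyltransferase of Polycomb repression, had no summit inside. Its nearest summit was 132 bp from the gene, and its strongest peak, 18.2-fold, was 8205 bp away. *Yy1* had 1 summit inside the gene, and its strongest peak, 7.58-fold, lay 15417 bp outside it. The strongest peaks of *Dnmt3b* (7.38-fold) and *Lrif1* (5.97-fold) lay inside. The values of *Yy1*, *Dnmt3b* and *Lrif1* were under 8.02, the median of all single peaks, and under the 12.2 of protein-coding genes. *Pitx1* and *Suv39h1* had no summit within 20 kb.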

How the data were processed

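BWA, MACS2 and mm10 are named in the submitters' processing notes. MACS 2.1.0.20151222 was run by the authors, per the file headers, on paired-end fragments of 1 antisera library against 1 control, at a q-value threshold of 0.01, with 1 fragment kept per position. The headers name filtered alignments, without saying which filter. The signal column deposited as pileup counts the antisera fragments that cover each summit. The deposited −log10 p-values and q-values and the fold enrichment, a ratio of pileup plus 1 to background plus 1, are the authors' own values, used only within the list.

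Background was recovered from pileup and fold, and the Poisson p recomputed from it matched the deposited −log10 p within 1% for 100% of 50196 peaks with a finite value. Gene spans came from RefSeq for GRCm38.p6. Distances run from summit to the nearer gene end, and are 0 inside. Intervals are exact Poisson at 95%. Python 3.11.15, pandas 2.3.3 and scipy 1.17.1 were used. The distance counts matched a plain gene-by-gene count by the same distance rule, on simulated summits and, for a sample of genes, on the real peaks.

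Members and lists were chosen with earlier results of these data known. Named are all members and their peaks, the 4 strongest of the 4q35 list and every gene with a peak in the FSHD list. All *Frg2f* entries are named, some of them only in the figures. *Slc25a4*, other genes without a peak and *Asah1*, *Foxj3* and *1700128A07Rik* were named after their values were seen. Other distances, strengths and placements were tried as alternatives. Peak and protein sequences were not used here.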

Additional observations from a re-analysis of the deposited data

How the results depend on the processing

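Each of the 6 counts and medians was recomputed under 8 other settings, those for the FSHD list being added after the data were seen. With the summit inside the span, 1 member, 3 member peaks and 14 genes of the 4q35 list were counted, and 32.3% of protein-coding genes. Within 5 kb there were 6 member peaks with a median fold of 18.65, and 43.2% of protein-coding genes; within 50 kb the latter was 81.2%. In the strongest 10% of peaks by −log10 p, 2 member peaks were left, the main ones of *Frg2f8* and *Frg2f9*, with a median of 26.5-fold. They lay within 20 kb of 4 of the 6 members, and *Frg1* and *Frg2f1* had none. The same setting left 2 genes of the 4q35 list, 0 of the FSHD list and 13.1% of protein-coding genes. A fold of at least 5 gave 57.8% of protein-coding genes. In those settings fewer peaks or a different distance entered by construction. The remaining counts of genes and peaks stayed within 1.5 times the main value, and a −log10 q of at least 5, an overlap of 1 bp or removal of peaks with a background of 10 or more changed none of the member counts. No paired analysis was possible because each group has 1 library, and for the same reason no library could be left out. Pileups under 30 fragments, at the third *Frg1* and first *Frg2f1* peaks, have the widest intervals relative to their size.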
